A study of Mus musculus with 2 samples.

Results

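The 40 genes described here carry pyruvate and fatty acids into the mitochondrion and burn them there. They are 15 genes of the Krebs cycle and its isoenzymes, 6 genes of pyruvate uptake and the pyruvate dehydrogenase complex, 5 genes of the regulation of that complex and of pyruvate carboxylase, 11 genes of fatty acid oxidation, and 3 genes of the electron transfer flavoprotein and its dehydrogenase. They were chosen by name for their function, with earlier results of these data known, so the shares below are descriptions. All 40 of the 40 had an assembled locus in both libraries. A locus was given to 14870 genes in M, MR or both. All 40 passed the filter of 1 TPM, a transcript level normalized for length and library size, in M or MR.

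RNA of cultured wild-type mouse bone marrow cells was sequenced as 2 libraries. The library M came from a culture with macrophage colony-stimulating factor (M-CSF), which keeps macrophage precursors alive and dividing, for 2 days by the labels and without RANKL. The library MR came from a culture with M-CSF for 2 days and then with M-CSF and RANKL, the cytokine that drives these precursors to become osteoclasts, for a further 2 days by the labels, whereas the culture method of the study names a longer time with RANKL and the day of RNA harvest is not given. Whether the M culture ran as long as the MR culture is not stated, so RANKL and time in culture cannot be told apart. Strain and age of the mice, and whether the cultures came from separate animals, are not given in the sources used here. With 1 library per condition, no difference below has a replicate check, no p-value was computed, and each value describes these libraries. The M library held 3.63 Gb of aligned bases and the MR library 2.98 Gb, as inferred from the ratio of coverage to FPKM. All of the 9 osteoclast markers examined were higher in MR by more than 1 on the log2 scale, and their summed level was 126 TPM in M and 24993 TPM in MR. The 7 macrophage markers, of which 1 was higher and 6 were lower in MR, summed to 4368 TPM in M and 3383 TPM in MR. The labels name the material only as bone marrow cells, and in such a bulk sample fewer cells of a type and less RNA per cell cannot be told apart.

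Pyruvate made by glycolysis enters the mitochondrial matrix through the mitochondrial pyruvate carrier, a pair of small membrane proteins. The pyruvate dehydrogenase complex turns it into acetyl-CoA, pyruvate dehydrogenase kinases switch that complex off by phosphorylation, and pyruvate dehydrogenase phosphatases switch it back on. The Krebs cycle oxidizes acetyl-CoA and hands electrons to the respiratory chain. Long-chain fatty acids are brought in by carnitine palmitoyltransferases and cut into acetyl-CoA by acyl-CoA dehydrogenases, hydratases, hydroxyacyl-CoA dehydrogenases and thiolases, and the electrons of the dehydrogenases pass through the electron transfer flavoprotein. Osteoclasts are rich in mitochondria, since acid secretion onto bone uses much ATP.

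Of the 40 genes, 36 had a higher TPM in MR than in M and 4 had a lower TPM, while 59.5% of all genes were higher in MR. These counts use TPM summed over the loci of a gene, and the direction of Mpc1 and Pcx depends on how their loci are combined. The log2 ratio of MR to M, taken after adding 1 to each TPM, was above 1 for 27 genes (67.5%), below -1 for 1 gene, and between these bounds for 12. Among all 13464 genes with a locus of their own that passed the same filter, 21.2% were above 1 and 13.3% were below -1. The median log2 ratio was 1.59 over the 40 genes and 0.21 over all genes. The summed level of the 40 genes was 2159 TPM in M and 6916 TPM in MR, a 3.20-fold difference. In the same libraries all 13 protein-coding genes of the mitochondrial genome were above 1, with a sum of 11148 TPM in M and 46157 TPM in MR.

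**Figure D1:**
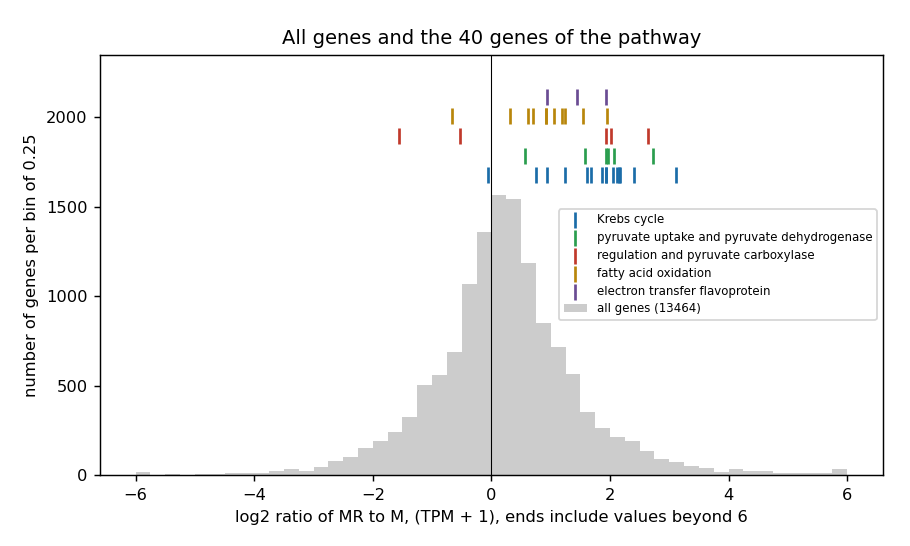
The bars give the number of genes (vertical axis) in each bin of 0.25 of the log2 ratio of MR to M (horizontal axis) for all 13464 genes, with values beyond 6 placed in the end bins, and the coloured ticks above them mark the 40 genes in 5 groups. Most ticks lie to the right of the peak of the bars, and the lowest tick, Pdp1, lies at -1.55.

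The groups were not alike in size of difference. The median log2 ratio was 1.94 for the Krebs cycle genes, 1.95 for pyruvate uptake and pyruvate dehydrogenase, 1.94 for the regulatory genes with pyruvate carboxylase, 1.44 for the electron transfer flavoprotein genes and 0.93 for fatty acid oxidation. Above 1 were 12 of 15 Krebs cycle genes, 5 of 6 genes of pyruvate uptake and pyruvate dehydrogenase, 3 of 5 regulatory genes, 5 of 11 fatty acid oxidation genes and 2 of 3 electron transfer flavoprotein genes. The summed levels differed 3.79-fold for the Krebs cycle and 1.87-fold for fatty acid oxidation. Differences between groups were not tested.

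**Figure D2:**
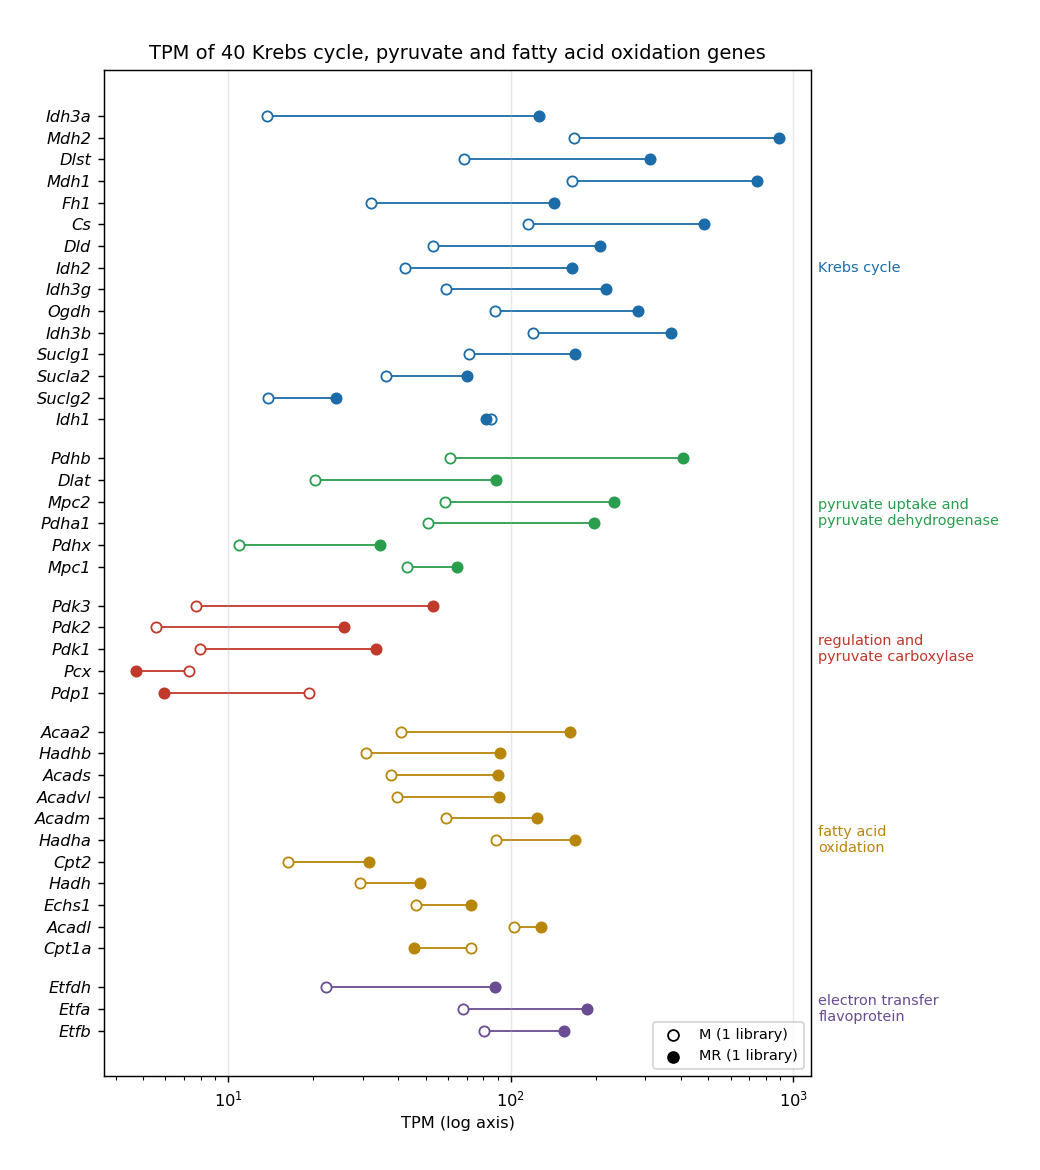
Each row is 1 of the 40 genes, and the horizontal log axis gives its TPM in the M library (open circle) and in the MR library (filled circle), with a line joining both. In 36 rows the filled circle is to the right, and in Idh1, Pcx, Pdp1 and Cpt1a it is to the left.

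Promoters are shown for the 3 genes with the highest log2 ratios by TPM (Pdhb, Pdk3 and Mdh2). Those with the lowest, Cpt1a and Pcx, are also shown. The choice was among genes with an entry in the RefSeq table, which leaves out Idh3a and Pdp1. Pcx is placed by its summed TPM, and its direction depends on how its fragments are combined. Pdk3 is placed by TPM, and its log2 ratio by coverage was lower, at 1.59. The Pdk3 locus in MR begins 48016 bases from the RefSeq start, so its window is not at the assembled 5′ end in MR. Each sequence runs from 250 bases before to 50 bases after the RefSeq start of the gene (build GRCm38.p6) and is written 5′ to 3′ on the strand of the gene. They are chr5:135778399-135778698 on the plus strand for Mdh2, chr14:8172943-8173242 on the minus strand for Pdhb, chrX:93832101-93832400 on the minus strand for Pdk3, chr19:3323051-3323350 on the plus strand for Cpt1a and chr19:4510222-4510521 on the plus strand for Pcx. Capitals mark matches, on either strand, to the motifs named in the next paragraph.
Mdh2: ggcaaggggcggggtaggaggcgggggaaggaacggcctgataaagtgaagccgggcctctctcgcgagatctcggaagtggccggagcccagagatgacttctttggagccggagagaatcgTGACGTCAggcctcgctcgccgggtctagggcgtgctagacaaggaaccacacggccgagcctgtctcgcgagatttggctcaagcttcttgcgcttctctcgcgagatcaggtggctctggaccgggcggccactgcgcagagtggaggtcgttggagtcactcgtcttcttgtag
Pdhb: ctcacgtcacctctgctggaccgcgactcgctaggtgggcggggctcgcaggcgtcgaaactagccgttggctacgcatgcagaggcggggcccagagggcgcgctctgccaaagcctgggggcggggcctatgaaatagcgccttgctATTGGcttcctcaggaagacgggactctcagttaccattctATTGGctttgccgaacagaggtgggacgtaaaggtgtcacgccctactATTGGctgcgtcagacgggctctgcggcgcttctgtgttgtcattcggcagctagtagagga
Pdk3: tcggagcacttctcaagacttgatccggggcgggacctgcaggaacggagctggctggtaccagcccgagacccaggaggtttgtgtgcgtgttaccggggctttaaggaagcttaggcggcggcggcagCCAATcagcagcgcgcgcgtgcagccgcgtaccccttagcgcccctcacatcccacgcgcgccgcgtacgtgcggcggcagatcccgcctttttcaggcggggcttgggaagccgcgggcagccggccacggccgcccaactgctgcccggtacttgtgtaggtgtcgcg
Cpt1a: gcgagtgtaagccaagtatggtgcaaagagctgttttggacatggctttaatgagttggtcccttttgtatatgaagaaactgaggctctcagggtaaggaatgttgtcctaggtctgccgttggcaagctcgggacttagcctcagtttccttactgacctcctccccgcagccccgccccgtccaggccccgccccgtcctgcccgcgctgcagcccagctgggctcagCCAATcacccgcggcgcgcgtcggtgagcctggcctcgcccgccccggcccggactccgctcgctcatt
Pcx: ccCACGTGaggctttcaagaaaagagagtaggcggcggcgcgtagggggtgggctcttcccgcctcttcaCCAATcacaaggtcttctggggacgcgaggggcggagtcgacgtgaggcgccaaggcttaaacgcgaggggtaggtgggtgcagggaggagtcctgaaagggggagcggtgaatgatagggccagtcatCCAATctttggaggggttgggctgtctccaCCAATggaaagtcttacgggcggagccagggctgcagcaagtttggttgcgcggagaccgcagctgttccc

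In the Mdh2 promoter the capitals are a cyclic AMP response element (CRE, TGACGTCA) at position -127 from the start. The capitals near the beginning of the Pcx promoter are an E-box (CACGTG) at position -248. All other capitals are CCAAT boxes (CCAAT, or ATTGG where the match is on the other strand), a motif added after the sequences had been seen. They stand at -101, -60 and -12 in Pdhb, at -120 in Pdk3, at -19 in Cpt1a, and at -180, -51 and -21 in Pcx. A CCAAT box was present in the promoters of 21 of the 37 genes with a RefSeq entry (56.8%), in 42.9% of expressed genes (at least 1 TPM in either library) and in 41.1% of all genes of the table.

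The other motifs were matched in few of the genes. The core of the site of NRF1, a factor of nuclear genes for mitochondrial proteins (GCGCATGCG), was found in 3 of 37 genes (8.11%) and in 4.04% of expressed genes. The CRE was found in 2 genes (5.41%, against 3.47%), the Ets site that GABP also binds (CCGGAAGT) in 2 genes (5.41%, against 9.08%) and the E-box in 3 genes (8.11%, against 11.6%). The site of oestrogen-related receptors (TNAAGGTCA) was found in 0 of 37 genes and in 0.866% of expressed genes, which says only that these letters are not in these windows. None of the motifs shares letters with another at the places shown, and a match is a description of letters and not of a bound site.

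In the first step of the Krebs cycle, citrate synthase joins acetyl-CoA to oxaloacetate. Its gene Cs was at 116 TPM in M and 484 TPM in MR, a log2 ratio of 2.06 with a 95% counting interval of 1.98 to 2.13. The interval is computed from estimated read pairs and covers counting error only. Cs was the gene with the third highest level of the 40 in MR, after Mdh2 and Mdh1.

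Isocitrate is oxidized by a set of enzymes that differ in cofactor and place. The NAD-dependent enzyme of the cycle is built from the products of Idh3a, which holds the catalytic site, Idh3b and Idh3g. Idh3a (chromosome 9, from 54586334 to 54604661, plus strand of GRCm38) was at 13.7 TPM in M and 126 TPM in MR, a log2 ratio of 3.11 (2.89 to 3.34), the largest of the 40 genes. Idh3b was at 120.2 and 369 TPM (log2 ratio 1.61), and Idh3g was at 59.1 and 218 TPM (1.86). Idh3b exceeded Idh3a 8.77-fold in M and 2.92-fold in MR, so the levels of the subunits lay closer to each other in MR.

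The NADP-dependent enzymes differed from each other. Idh2, the mitochondrial enzyme, was at 42.2 TPM in M and 164 TPM in MR, a log2 ratio of 1.94. Idh1, the cytosolic and peroxisomal enzyme, was at 85.0 TPM in M and 81.9 TPM in MR, a log2 ratio of -0.05 (-0.18 to 0.08) whose counting interval includes 0. The level of Idh2 was 0.497 times that of Idh1 in M and 2.01 times that of Idh1 in MR.

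The 2-oxoglutarate dehydrogenase complex consists of the E1 subunit Ogdh, the E2 subunit Dlst, and Dld, the E3 subunit that it shares with the pyruvate dehydrogenase complex. Dlst was at 68.5 TPM in M and 311 TPM in MR (log2 ratio 2.17), where the MR value is the sum of 2 loci. With a mean weighted by exon bases the log2 ratio of Dlst was 2.01. Dld was at 53.3 and 207 TPM (1.94). Ogdh was at 88.0 TPM in M and 283 TPM in MR (1.68). The listed coverage of Ogdh was 144 reads per base in M and 167 in MR, and per aligned Gb the log2 ratio was 0.48, below the bound of 1. The sizes given for Dlst and Dld were above 1 on both scales.

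Succinyl-CoA ligase, which makes ATP or GTP directly, showed the smallest differences among the multi-subunit enzymes of the cycle. Suclg1, the subunit common to both forms, was at 71.3 TPM in M and 169 TPM in MR (log2 ratio 1.24). Sucla2, the ATP-forming subunit, was at 36.2 and 70.2 TPM (0.94). Suclg2, the GTP-forming subunit, was at 13.9 and 24.1 TPM (0.75), and Sucla2 exceeded Suclg2 2.60-fold in M and 2.91-fold in MR.

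The last steps are run by fumarase and malate dehydrogenase. Fh1, fumarase, was at 32.1 TPM in M and 143 TPM in MR (log2 ratio 2.12). Mdh2, the mitochondrial malate dehydrogenase (chromosome 5, from 135778480 to 135790398, plus strand), was at 167 TPM in M and 891 TPM in MR (2.41; 2.32 to 2.49). Mdh1, the cytosolic enzyme of the malate-aspartate shuttle, was at 165 TPM in M and 742 TPM in MR (2.16; 2.08 to 2.24). Mdh2 and Mdh1 were the most abundant of the 40 genes in both libraries.

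**Figure D3:**
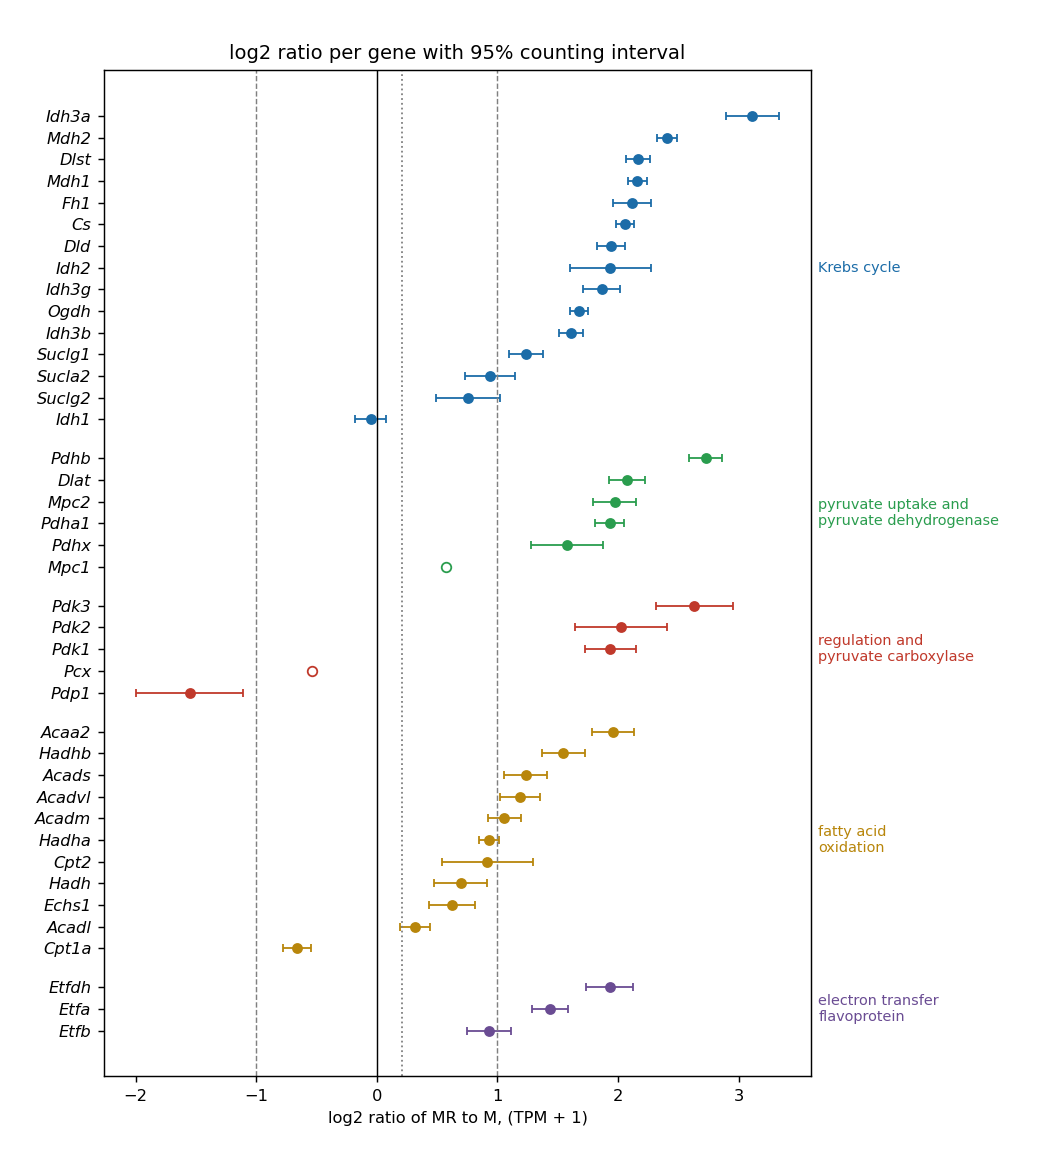
Each row is 1 gene, the horizontal axis gives the log2 ratio of MR to M after adding 1 to each TPM, and the bars are 95% counting intervals from 1 library per condition. The dashed lines mark -1 and 1, the dotted line marks the median of all genes at 0.21, and the open circles (Mpc1 and Pcx) have no interval, since their loci were broken into fragments.

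Among the genes that bring pyruvate into the cycle, the carrier subunit Mpc2 was at 58.6 TPM in M and 233 TPM in MR (log2 ratio 1.97). Its partner Mpc1 was at 43.2 TPM in M and 64.7 TPM in MR (0.57). The Mpc1 value depends on the assembly, since in MR the gene was split into a fragment at its 5′ end with 7.27 TPM and a fragment at its 3′ end with 57.4 TPM, and in M only the 3′ part was assembled. With a mean weighted by exon bases in place of the sum, the log2 ratio of Mpc1 was -0.30, so no direction is given for this gene.

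All 4 genes that encode subunits of the pyruvate dehydrogenase complex alone were higher in MR, with a summed level of 143 TPM in M and 729 TPM in MR. Pdhb, the beta subunit of E1 (chromosome 14, from 8165996 to 8173025, minus strand), was at 60.8 TPM in M and 408 TPM in MR, a log2 ratio of 2.73 (2.59 to 2.86). Pdha1, the alpha subunit of E1, was at 51.1 TPM in M and 198 TPM in MR (1.93; 1.81 to 2.05). The alpha and beta subunits pair in equal number in the enzyme, and the level of Pdhb was 1.19 times that of Pdha1 in M and 2.06 times in MR.

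The genes of the core of the complex were likewise higher in MR. Dlat, the E2 subunit, was at 20.4 TPM in M and 89.0 TPM in MR (log2 ratio 2.07). Pdhx, which anchors E3 to the core, was at 10.9 and 34.5 TPM (1.58; 1.28 to 1.87) and was the least abundant subunit in both libraries.

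The kinases that inactivate the complex were also higher in MR. Pdk1 was at 7.98 TPM in M and 33.4 TPM in MR (log2 ratio 1.94; 1.73 to 2.15). Pdk2 was at 5.57 TPM in M and 25.7 TPM in MR (2.02; 1.64 to 2.40). Pdk3 (chromosome X, from 93764607 to 93832201, minus strand) was at 7.71 TPM in M and 53.0 TPM in MR (2.63; 2.31 to 2.95). The summed level of these kinases was 21.3 TPM in M and 112 TPM in MR, and the share of Pdk3 in it was 36.3% in M and 47.3% in MR. By listed coverage in place of TPM the share of Pdk3 was 36.3% in M and 32.6% in MR, so no direction is given for it. No locus was given to Pdk4, the remaining kinase, in either library.

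The phosphatase genes differed from the kinases. Pdp1, the calcium-stimulated catalytic subunit (chromosome 4, from 11958184 to 11966452, minus strand), was at 19.4 TPM in M and 5.96 TPM in MR, a log2 ratio of -1.55 (-2.00 to -1.11). It was the only one of the 40 genes below -1. Pdp2, the other catalytic subunit, was at 5.48 and 5.96 TPM (0.10), and Pdpr, the regulatory subunit, was at 5.79 and 20.2 TPM (1.64). The summed level of Pdk1, Pdk2 and Pdk3 was 1.10 times the level of Pdp1 in M and 18.8 times in MR, and 0.854 times the sum of Pdp1 and Pdp2 in M and 9.41 times in MR. These are RNA levels, and the phosphorylation of the complex was not measured.

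Pcx, pyruvate carboxylase, refills the cycle with oxaloacetate. Its summed level was 7.30 TPM in M and 4.73 TPM in MR, a log2 ratio of -0.53, but the sum compares unlike assemblies. In MR 1 locus covered 97.4% of the exon bases of the gene, whereas in M the gene was broken into 5 fragments with 1.00, 1.28, 1.67, 0.724 and 2.62 TPM. With the fragment that holds most exon bases alone the log2 ratio was 1.52, and with a mean weighted by exon bases it was 1.15, so the direction for Pcx was not settled by these tables.

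**Figure D4:**
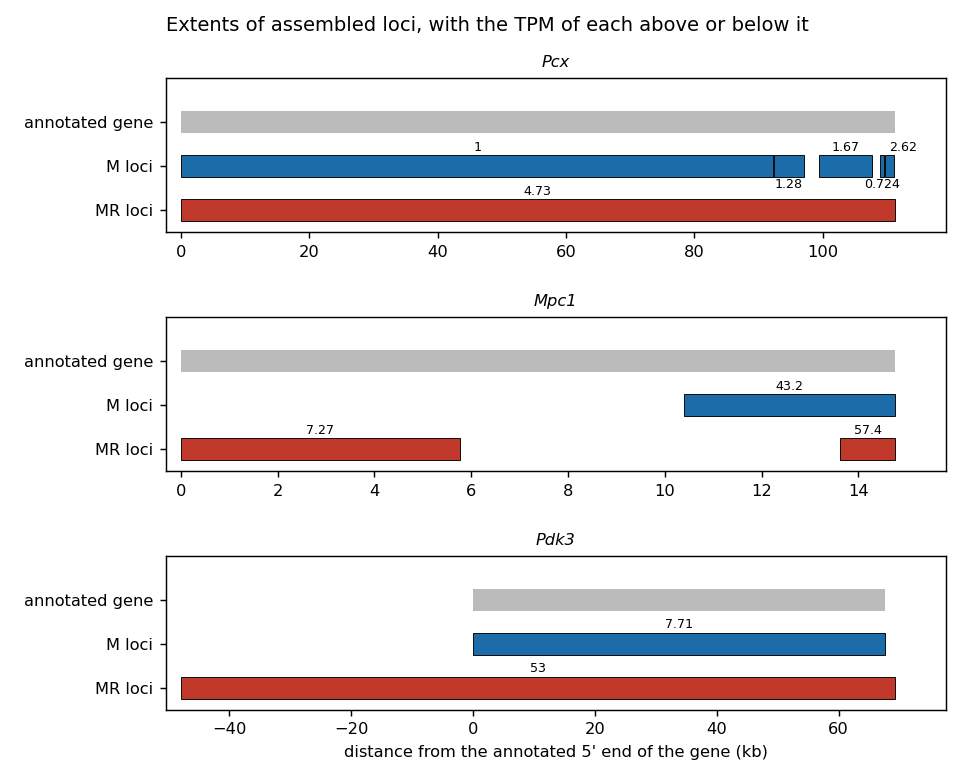
For Pcx, Mpc1 and Pdk3, the bars show the annotated gene (grey) and the loci assembled in M (blue) and MR (red) along the distance in kb from the annotated 5′ end, with the TPM of each locus beside it. Pcx is in 5 pieces in M and in 1 piece in MR, Mpc1 is in 1 piece in M and in 2 in MR, and the MR locus of Pdk3 begins 47965 bases before the annotated gene.

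The assembled ends of most of the other genes were close between the libraries. The counts below use the outermost ends of all loci of a gene, so the broken Pcx counts as close. The 5′ ends differed by at most 100 bases for 37 of the 40 genes, and the 3′ ends for 35. The 5′ end of Pdk3 lay 47965 bases before the annotated gene in MR and 42 bases inside it in M. On the scale of coverage per aligned Gb the log2 ratio of Pdk3 was 1.59, above 1 but lower than on the TPM scale. The 3′ ends of Pdk1, Dlst, Pdk3, Pdha1 and Suclg2 reached 2023, 1880, 1670, 1211 and 422 bases further in MR than in M. For Dlst the outer end in MR was that of a second locus of 10.6 TPM beside the main locus of 301 TPM.

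Fatty acid oxidation begins with the carnitine palmitoyltransferases, and these differed from each other. Cpt1a, the outer membrane enzyme that sets the rate of entry of long-chain fatty acids (chromosome 19, from 3322334 to 3385733, plus strand), was at 72.4 TPM in M and 45.4 TPM in MR, a log2 ratio of -0.66 (-0.78 to -0.54). Cpt2, the inner membrane enzyme, was at 16.3 TPM in M and 31.6 TPM in MR (0.91; 0.54 to 1.29). The carnitine-acylcarnitine carrier between them, Slc25a20, was at 33.9 and 51.7 TPM (0.60). The level of Cpt2 was 0.225 times that of Cpt1a in M and 0.695 times in MR. Cpt1a was the only one of the 11 fatty acid oxidation genes with a lower TPM in MR.

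The acyl-CoA dehydrogenases, which differ in the chain length they prefer, were all higher in MR. Acadvl, for very long chains, was at 39.5 TPM in M and 91.2 TPM in MR (log2 ratio 1.19). Acads, for short chains, was at 37.8 and 90.2 TPM (1.23), and Acadm, for medium chains, was at 59.1 and 124 TPM (1.06). Acadl, for long chains, was the most abundant of them in M at 103 TPM and was at 128 TPM in MR (0.32; 0.20 to 0.44). Acadm was under 1 in 3 of the other ways of scaling, and Acadvl was at 0.997 under median-of-ratios scaling, just inside the bound.

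The later steps of each round showed a wide range. The mitochondrial trifunctional protein is made of Hadha, with the hydratase and dehydrogenase activities, and Hadhb, the thiolase. Hadha was at 88.5 TPM in M and 169 TPM in MR (log2 ratio 0.93), and Hadhb was at 30.8 and 91.8 TPM (1.55). The loci of these neighbours overlap at their 5′ ends on opposite strands, and strand marking of the libraries is not stated, so reads in the overlap cannot be told apart. Acaa2, the thiolase for medium chains, was at 41.0 and 162 TPM (1.96; 1.78 to 2.13), the largest difference of the group. Hadh, the dehydrogenase for short and medium chains, was at 29.2 and 47.9 TPM (0.70), and Echs1, the short-chain hydratase, was at 46.4 and 72.1 TPM (0.63).

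The electron transfer flavoprotein collects electrons from the acyl-CoA dehydrogenases. Its alpha subunit Etfa was at 68.0 TPM in M and 186 TPM in MR (log2 ratio 1.44). Its beta subunit Etfb was at 80.5 and 154 TPM (0.93) on a locus that also covers another annotated gene. Etfdh, the membrane enzyme that passes the electrons on to ubiquinone, was at 22.3 and 87.8 TPM (1.93; 1.74 to 2.13).

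A further 45 genes of the same and adjoining pathways were listed by function, also with earlier results known. Of these genes, 43 had a value, since no locus was given to Pdk4 or Acsl3. Above 1 were 19, below -1 was 1 and 23 lay between, with a median log2 ratio of 0.68. The shares over all genes were 21.2% above 1 and 13.3% below -1. Sdha, Sdhb, Sdhc and Sdhd, the subunits of the succinate dehydrogenase that links the cycle to the respiratory chain, had log2 ratios of 1.73, 1.44, 1.20 and 1.65. The gene below -1 was Acod1, whose enzyme draws cis-aconitate out of the cycle to make itaconate in activated macrophages. It was at 369 TPM in M and 33.1 TPM in MR, a log2 ratio of -3.44.

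The largest differences on this list were in genes of ketone body and lactate use. Bdh1, which converts the ketone bodies hydroxybutyrate and acetoacetate into each other, was at 2.60 TPM in M and 120.2 TPM in MR (log2 ratio 5.07). Its pathway neighbours Oxct1 and Acat1 had log2 ratios of 1.18 and 1.93. Ldhb, the lactate dehydrogenase subunit typical of oxidative tissues, was at 3.90 TPM in M and 122 TPM in MR (4.65). Ldha, the subunit typical of glycolytic tissues, was at 506 and 609 TPM (0.27).

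Genes that encode regulators of these enzymes were read as levels. Of the 9 listed, 8 had a value, with 3 above 1, 1 below -1 and 4 between. The 3 above 1 include Ppara (2.27), which was given no locus in M. Among all genes, 21.2% were above 1 and 13.3% were below -1. Those between were Nrf1 (log2 ratio -0.06), Gabpa (0.68), Tfam (0.80) and Ppard (-0.27). Ppargc1b, the coactivator PGC-1 beta, was at 3.85 TPM in M and 30.7 TPM in MR (log2 ratio 2.71), and Esrra, an oestrogen-related receptor, was at 67.7 and 146 TPM (1.09), while no locus was given to Ppargc1a in either library. Pparg was at 39.6 TPM in M and 9.67 TPM in MR (-1.93), and Ppara, the receptor that many fatty acid oxidation genes respond to in liver, was given no locus in M and 3 fragments with a sum of 3.82 TPM in MR.

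Marker lists of other cells were read as RNA levels, which do not give the cell make-up of the cultures. None of the 7 macrophage markers was above 1 and 3 were below -1, namely Adgre1, Mrc1 and Mertk, while Csf1r, the M-CSF receptor, was at 697 TPM in M and 872 TPM in MR. The 8 neutrophil markers summed to 1365 TPM in M and 953 TPM in MR, and none was past the bounds. Lymphoid markers summed to 14.9 and 8.50 TPM, and erythroid markers to 3.35 and 2.11 TPM. Stromal and adipocyte markers summed to 22.3 and 36.2 TPM, and no locus was given to Adipoq or Plin1 in either library. Dendritic markers summed to 16.1 and 20.8 TPM, and mast cell and basophil markers to 6.41 and 3.30 TPM. The part of these markers in the differences above was not tested.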

How the data were processed

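RNA of 2 libraries, 1 per condition, was extracted with the RNeasy micro kit and made into libraries with an NEB Next Ultra kit. The authors trimmed the reads with Trim Galore, aligned them to mm10 (GRCm38) with HISAT2 and ran StringTie on GENCODE vM27, whose positions are on GRCm39. The deposited tables hold coverage (a signal of reads per base, not normalized for depth), FPKM and TPM for each assembled locus. The deposited TPM of the loci alone sums to 1000000. The tables also list entries under gene names, which were not used here because their positions and the alignments are on different builds.

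Every locus went to the GENCODE vM21 (GRCm38) gene with which it shared the most exon bases on the same strand (minimum 50), and it counted as shared if another gene also had 50% or more of its exon bases in it. In this way 15665 of 19422 loci of M (95.4% of its TPM) and 16523 of 19922 loci of MR (96.9%) were given to genes. TPM was summed per gene, a pseudocount of 1 was added before the log2 ratio was taken, and genes under 1 TPM in both libraries were left out. A log2 ratio above 1 or below -1 was counted, and no test was run on single libraries. Library size in aligned bases is the modal ratio of coverage to FPKM, shared by 39.1% (M) and 42.5% (MR) of the entries above 5 FPKM. Read pairs per gene were estimated from FPKM, aligned bases and the shortest coding transcript at 300 bases per pair, and Wilson intervals (95%) of the share in MR gave the counting intervals. No interval was given where the main locus held under 80% of the assembled exon bases of a gene. The assignment was tested on simulated data, in which 97.95% of 5000 loci reached their gene of origin. Each simulated locus spanned nearly the whole annotated gene, so broken loci and loci that run past a gene were not covered by this test.

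The named genes are the 40 genes, the other pathway genes past the bounds or next to one of the 40 in its pathway, the regulators, and the marker lists. A gene of the pathway list is not reported here. The 40 genes and all lists were chosen with earlier results of these data known. Promoters are from RefSeq (GRCm38.p6; 32851 sequences of 27025 genes), and 37 of the 40 genes were matched by symbol. The software was Python 3.11.15, with the packages numpy (2.4.6), pandas (2.3.3), scipy (version 1.17.1) and, for drawing, matplotlib 3.10.9. Alternatives were another pseudocount (0.1), no filter or a filter of 10 TPM, FPKM, median-of-ratios scaling, TPM rescaled after removal of mitochondrial and the 20 most abundant genes, coverage per aligned Gb, only genes that had an unshared locus in M and in MR, the largest locus alone, and a log2 threshold of 2. A mean over loci weighted by exon bases was added after the data were seen. Protein sequences were not analysed here.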

Additional observations from a re-analysis of the deposited data

Results flagged for a closer look

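Within the extents of the 40 genes, 4 short assembled loci were given to no gene, are outside the values above, and were at a TPM of at least 1 in MR and higher there than in M. A locus of 64 bases on the strand of Ogdh was at 6.60 TPM in MR and 1.19 TPM in M, with a listed coverage of 8.75 reads per base in MR. A locus of 790 bases on the strand opposite to Mpc2 was at 1.65 TPM in MR and was not assembled in M. A locus of 429 bases on the strand opposite to Pdhb was at 2.59 TPM in MR and 0.637 TPM in M. A locus of 1139 bases on the strand of Acadl was at 1.09 TPM in MR and 0.699 TPM in M. Only loci higher in MR were selected in this way. A locus given to no gene on the strand opposite to Cpt1a went the other way, at 4.65 TPM in M and 2.40 TPM in MR. All of these loci come from 1 library per condition, and their source was not tested.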

How the results depend on the processing

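For the 38 genes with a counting interval, 339 of 379 values under the alternatives stayed within it and 40 moved beyond it. On which side of the bounds they lay did not change for 36 of the 40 genes and changed for 4, namely Ogdh, Pcx, Acadm and Acadvl, and the sign changed under an alternative for Pcx and Mpc1. Without a change of threshold, 25 to 28 of the 40 genes were above 1. Median-of-ratios scaling over 11871 genes placed the median log2 ratio of all genes at 0.02 in place of 0.21 and gave a median of 1.41 for the 40 genes. With a log2 threshold of 2, 10 of the 40 genes were above and 0 below, with 958 and 521 of all 13464 genes. Under a filter of 10 TPM, 1601 of 8680 genes were above 1 and 983 were below -1. Among the 11717 genes that had an unshared locus in M and in MR, 1795 were above 1 and 1102 below -1. Both settings leave fewer genes, and in each 27 of 39 of the genes described here were above 1 and 1 was below -1. Since each condition has 1 library, none could be left out in turn. No paired analysis was possible with 1 library per condition, and no test was run. Whether the cultures came from the same animal is not given. Depth limits the lowest genes most: the widest counting interval, that of Pdp1, ran from -2.00 to -1.11.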
